A study of Mus musculus with 6 samples.

Results

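RNA levels of 10 genes of the insulin-FoxO axis were compared in differentiated mouse osteoblasts treated with the glucocorticoid corticosterone or vehicle. Activity of the pathway was not measured. The genes were the receptor *Insr*, the adaptors *Irs1* and *Irs2*, the PI3K subunit gene *Pik3r1*, the transcription factors *Foxo1*, *Foxo3* and *Foxo4*, and *Ddit4*, *Sesn1* and *Fbxo32*, which FoxO factors or glucocorticoids are known to induce in other tissues. The members were the rows of the deposited gene table whose Ensembl identifier carries one of these symbols in the GENCODE annotation of mouse build GRCm38. All 10 were found among 24016 genes. RNA-seq was performed on MC3T3-E1 cells (genotype WT), a preosteoblast line from mouse calvaria, here a single subclone (Subclone 4), which had been differentiated for 6 days with β-glycerophosphate (10 mM) and ascorbic acid (50 µg/ml). Vehicle or 100 nM corticosterone was then given for 24 h, and the treatment protocol that all samples carry adds 10 nM calcitriol, the active form of vitamin D. Each group held 3 libraries that the study describes as biological replicates. A line of 1 clone stands for osteoblasts only as far as its markers do, and a bulk library cannot tell fewer cells of a type from less RNA per cell.

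As background, insulin and IGF1 bind the receptors INSR and IGF1R, which phosphorylate the adaptors IRS1 and IRS2. These recruit PI3K, whose lipid product PIP3 activates the kinase AKT. AKT phosphorylates FoxO transcription factors and so keeps them out of the nucleus, and it activates the growth kinase complex mTORC1. When the pathway is quiet, nuclear FoxO factors induce genes of cell cycle arrest, stress resistance, insulin sensing and, in skeletal muscle, the ubiquitin ligases that mark muscle proteins for degradation, known as atrophy genes. In bone, FoxO factors are known for restraining oxidative stress in osteoblasts, and glucocorticoid excess is known both for insulin resistance and for muscle and bone loss.

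The libraries held 16020401 to 25638645 reads counted on genes. Values below are normalized counts, that is, reads divided by 1 size factor per library (0.782 to 1.30), and a fold change is on the log2(value + 0.1) scale with corticosterone over vehicle. Of 10 osteoblast markers, 9 had a mean over 10. Their summed normalized count was 1357788 to 1403943 with vehicle and 1182530.3 to 1238071 with corticosterone, and *Phex*, which marks late osteoblasts and osteocytes, had at most 9 reads in any library. Of these markers 8 fell and *Spp1* rose at a limma adjusted p under 0.05. Known glucocorticoid-induced genes were higher in the libraries labelled corticosterone: *Tsc22d3* was 2.82-fold and *Fkbp5* 5.52-fold higher than with vehicle.

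Of the 10 members, 6 changed at a limma adjusted p under 0.05 and 4 did not pass. *Irs2*, *Pik3r1*, *Foxo1*, *Foxo3* and *Ddit4* rose, *Irs1* fell, and no member moved by more than 1 on the log2 scale, the study's size threshold. Over all genes tested, 16.7% passed, 8.49% as higher and 8.2% as lower, and 2.78% also passed the size threshold. Calls depend on depth, and every member had at least 260 reads in every library, so genes with a mean of at least 100 are a closer background. Of those, 32.6% passed, 17.1% as higher, 15.5% as lower and 2.2% past the size threshold too. In 6 of 10 members every library of 1 group lay beyond every library of the other, against 29.6% of all genes and 49% of those with a mean of at least 100. The median log2 fold change was 0.18 for the members and -0.013 for all genes. The split of all calls into higher and lower depended on the scaling, with 2040 and 1970 as deposited, 1703 and 2522 after scaling to the same total, and 1349 and 2595 after upper-quartile scaling.

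**Figure D1:**
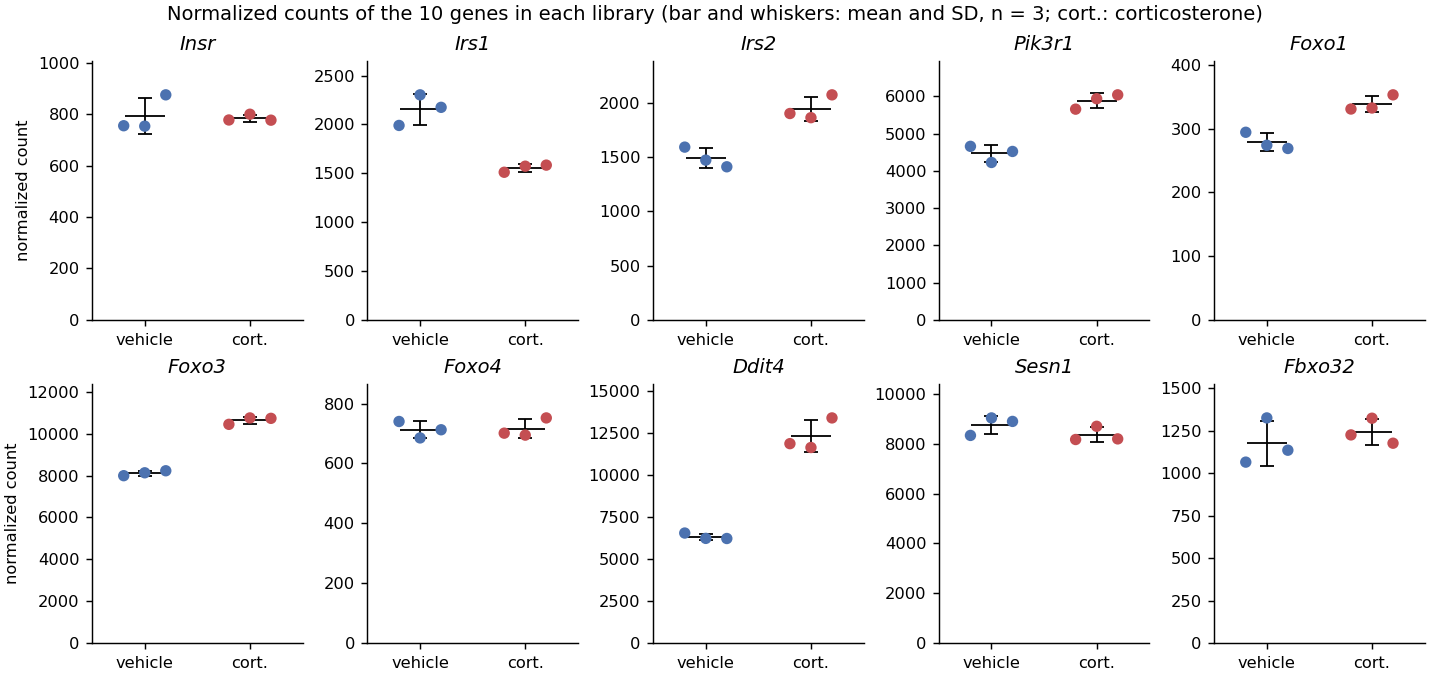
Normalized count of each member in each of the 6 libraries, 1 panel per gene with its own axis from 0, points for libraries, dashes for group means and whiskers for the SD (n = 3). The libraries of the groups separate in *Irs1*, *Irs2*, *Pik3r1*, *Foxo1*, *Foxo3* and *Ddit4* and overlap in *Insr*, *Foxo4*, *Sesn1* and *Fbxo32*.

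*Insr* encodes the insulin receptor, at chromosome 8, 3122061 to 3279617 on the minus strand of GRCm38 (ENSMUSG00000005534). Its normalized counts were 755, 753 and 875 with vehicle and 777, 799.6 and 777 with corticosterone. The groups overlapped, the vehicle libraries spanning the corticosterone ones, and the log2 fold change was -0.015 (95% interval -0.15 to 0.13, limma adjusted p = 0.94), which covers folds of 0.898 to 1.09. Its sign rested on the highest vehicle library, since it was 0.057 without vehicle replicate 3. The related receptor *Igf1r*, which binds IGF1, rose from 1549.9 ± 40.8 to 1952 ± 15.5 (SD, n = 3 each) (log2 fold change 0.33, standard error 0.046, limma adjusted p = 5.4e-05). The log2 ratio of *Insr* to *Igf1r* within a library was -0.97 ± 0.16 with vehicle and -1.32 ± 0.019 with corticosterone (SD, n = 3 each). The ratio was lower in every corticosterone library than in any vehicle library.

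The adaptor genes moved in opposite directions. *Irs1* (chromosome 1, 82233101 to 82291416, minus strand, ENSMUSG00000055980) encodes insulin receptor substrate 1, and its normalized counts were 1989.9, 2303 and 2175 with vehicle and 1511, 1573 and 1584 with corticosterone. All corticosterone libraries lay below all vehicle libraries, and the mean fell from 2156 ± 157 to 1556 ± 39.4 (SD, n = 3 each), a fold of 0.722 (log2 fold change -0.47, standard error 0.055, limma adjusted p = 9.4e-06). *Irs2* (chromosome 8, 10984681 to 11008458, minus strand, ENSMUSG00000038894) encodes the second widely expressed adaptor, and its normalized counts were 1591, 1471 and 1409.8 with vehicle and 1900.4, 1862 and 2072 with corticosterone. Here all corticosterone libraries lay above all vehicle libraries, and the mean rose from 1491 ± 92.1 to 1945 ± 112 (SD, n = 3 each), a fold of 1.30 (log2 fold change 0.38, standard error 0.057, limma adjusted p = 1.1e-04). Without a variance trend the call of *Irs2* was lost (adjusted p = 0.070). Of the 31-base stretches of the longest *Irs1* transcript, 30.7% occur in another annotated gene too. A predicted gene on the opposite strand also overlaps *Irs1* (*Gm9747*, not among the 24016 genes with values). The count of *Irs1* is uncertain to that extent.

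Within a library, the log2 ratio of *Irs2* to *Irs1* was -0.53 ± 0.18 with vehicle and 0.32 ± 0.073 with corticosterone (SD, n = 3 each). *Irs1* was thus the more counted adaptor in every vehicle library and *Irs2* in every corticosterone library, and the ratio was 1.81-fold higher with corticosterone. The exact permutation test gave p = 0.1, the smallest value that 3 against 3 libraries allow, and an adjusted p of 0.11 over the 11 ratios compared. Per kilobase of exon, a scale on which genes can be compared, the vehicle levels were 236 ± 17.2 for *Irs1* and 236 ± 14.6 for *Irs2* normalized counts (SD, n = 3 each), which overlap. With corticosterone they were 170.1 ± 4.31 and 308 ± 17.7, with no overlap.

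The promoters of *Irs1* and *Irs2* are shown because the genes moved apart while their sequences just before the start site share a pair of motifs. The windows are the 250 bases before the RefSeq start in GRCm38.p6, read 5′ to 3′ on the gene's strand, chr1:82291440-82291689 (minus) for *Irs1* and chr8:11008930-11009179 (minus) for *Irs2*. Capitals mark the E-box CACGTG and the insulin response element TGTTTTG, which were searched on both strands.
Irs1: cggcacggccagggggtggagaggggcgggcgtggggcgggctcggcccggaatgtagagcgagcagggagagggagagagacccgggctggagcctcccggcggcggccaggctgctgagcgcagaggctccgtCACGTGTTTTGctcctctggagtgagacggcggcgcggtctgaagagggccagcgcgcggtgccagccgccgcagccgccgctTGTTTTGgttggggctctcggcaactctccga
Irs2: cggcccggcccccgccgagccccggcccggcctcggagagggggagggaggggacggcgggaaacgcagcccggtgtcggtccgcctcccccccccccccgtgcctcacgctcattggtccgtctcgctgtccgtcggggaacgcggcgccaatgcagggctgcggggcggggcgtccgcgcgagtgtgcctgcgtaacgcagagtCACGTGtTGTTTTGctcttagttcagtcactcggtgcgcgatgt
In *Irs1* an E-box began 115 bases before the start and overlapped an insulin response element that began 111 bases before it, and a further insulin response element began 32 bases before it. In *Irs2* an E-box began 44 and an insulin response element 37 bases before the start. GENCODE starts *Irs2* further downstream, at 11008458, so both motifs lie farther from that start. Of 32851 RefSeq windows of this length, 6.02% held the E-box and 5.56% the insulin response element. Only 7 windows, 0.0213%, held both with starts within 10 bases of each other, those of *Irs1*, *Irs2*, *Irs4*, *Klf11*, *Pcbp1*, *Pyroxd1* and *1700019P21Rik*. That distance was chosen after the matches had been seen.

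The remaining genes at the receptor belonged to a list of 13, of which 11 were measured. Of these, 7 passed the test (63.6%, against 32.6% of genes with a mean of at least 100), 4 higher and 3 lower, among them the members *Irs1* and *Irs2*, and *Igf1r*, *Shc1*, *Grb2* and *Sos1*. *Shc1*, *Grb2* and *Sos1* link the receptor to Ras, and their log2 fold changes were 0.35, -0.23 and -0.17. The call of *Shc1* was lost without any 1 library other than vehicle replicate 2 (adjusted p 0.058 to 0.19) and that of *Sos1* without any 1 library other than vehicle replicate 2 (adjusted p 0.068 to 0.19). Without a variance trend 3 of the 11 passed. Here and below, genes of a list beyond those with its 3 largest changes were named after their values had been seen.

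The list named receptor brakes holds genes most of whose products are known for acting against receptor signaling. Of its 8 genes, 6 passed the test (75.0%), 1 higher and 5 lower. Their list had a median log2 fold change of -0.29, against -0.013 for all genes. *Enpp1* fell from 187 ± 14.4 to 126 ± 10.5 (SD, n = 3 each) (log2 fold change -0.57, limma adjusted p = 0.0022), and its enzyme is also known in bone for making the mineralization inhibitor pyrophosphate. The other 4 lower genes were *Socs1* and *Socs3*, inhibitors of cytokine signaling (-0.42 and -0.35), and the receptor-binding adaptors *Sh2b2* and *Grb14* (-0.37 and -0.24). The tyrosine phosphatase gene *Ptpn1* was the 1 higher gene (0.21). Only *Enpp1* kept its call without each single library. The count of 6 was 2 without vehicle replicate 2, 1 without vehicle replicate 3, 3 without corticosterone replicate 2 and 2 without corticosterone replicate 3, and 1 without a variance trend.

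*Pik3r1* encodes the p85-alpha regulatory subunit of PI3K, which binds phosphorylated IRS adaptors and both stabilizes and restrains the catalytic subunit (chromosome 13, 101680563 to 101768217, minus strand, ENSMUSG00000041417). Its normalized counts were 4656, 4223 and 4519 with vehicle and 5654, 5934 and 6038 with corticosterone. Every corticosterone library lay above every vehicle library, with means of 4466 ± 221 and 5876 ± 199 (SD, n = 3 each) and a fold of 1.32 (log2 fold change 0.40, standard error 0.045, limma adjusted p = 7.0e-06). Ratios to the other regulatory subunit genes shifted with it. *Pik3r2* had a log2 fold change of 0.052 (95% interval -0.041 to 0.14, adjusted p = 0.53), whose sign turned under upper-quartile scaling and quantile normalization, and its log2 ratio to *Pik3r1* was 0.29 ± 0.14 with vehicle and -0.052 ± 0.023 with corticosterone (SD, n = 3 each). *Pik3r3* fell from 1405 ± 43.7 to 1071 ± 40.7 (SD, n = 3 each) (log2 fold change -0.39, adjusted p = 4.0e-05), though 23.7% of its 31-base stretches are shared with other genes. The log2 ratio of *Pik3r3* to *Pik3r1* was -1.67 ± 0.11 with vehicle and -2.46 ± 0.10 with corticosterone (SD, n = 3 each). Of the catalytic subunit genes, *Pik3cb* (p110-beta) rose from 226 ± 15.6 to 301 ± 10.0 (SD, n = 3 each). Over the PI3K list 3 of 7 measured genes passed, *Pik3r1*, *Pik3r3* and *Pik3cb*. This was 42.9%, against 32.6% of genes with a mean of at least 100.

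The list of the PIP3 and AKT arm had 6 of 17 genes past the test, 2 higher and 4 lower, a share of 35.3% that lies near the 32.6% of genes with a mean of at least 100. The AKT genes *Akt1* and *Akt2* had log2 fold changes of -0.12 (95% interval -0.22 to -0.016) and -0.046 (-0.14 to 0.046) and did not pass. *Sgk1*, an AKT-related kinase gene known to be glucocorticoid-induced and to act on FoxO3, rose 6.71-fold. The pseudokinase genes *Trib1* and *Trib2*, whose products bind AKT, moved apart, with 0.66 and -0.39. *Inpp5d*, a PIP3 phosphatase gene known from blood cells, fell by 1.19 (limma adjusted p = 0.045) on 7 to 28 reads, and its call was lost without any 1 of the 6 libraries (adjusted p 0.059 to 0.14). *Pdpk1*, the gene of the kinase that activates AKT, was lower as well (-0.15, adjusted p = 0.037), lost without any 1 of the 6 libraries (adjusted p 0.051 to 0.096). *Akt1* passed in 7 of 20 alternative fits, among them total, upper-quartile and quantile scaling, but not with DESeq2.

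The FoxO factor genes differed among themselves. *Foxo3* (chromosome 10, 42181841 to 42276755, minus strand, ENSMUSG00000048756) was by far the most counted, with normalized counts of 7992, 8130.4 and 8227 with vehicle and 10445, 10752 and 10732 with corticosterone. The replicates lay close together and the groups far apart, with means of 8117 ± 118 and 10643 ± 172 (SD, n = 3 each) and a fold of 1.31 (log2 fold change 0.39, standard error 0.037, limma adjusted p = 7.9e-07). *Foxo1* (chromosome 3, 52268336 to 52353221, plus strand, ENSMUSG00000044167) had normalized counts of 294, 274 and 269 with vehicle and 331, 332 and 353 with corticosterone. Its groups did not overlap, and the means of 279 ± 13.5 and 339 ± 12.4 (SD, n = 3 each) gave a fold of 1.21 (log2 fold change 0.28, standard error 0.081, limma adjusted p = 0.024). The *Foxo1* call was lost without any 1 library other than vehicle replicate 1 (adjusted p 0.029 to 0.096 over the 6 fits), with DESeq2 (0.076) and after upper-quartile scaling (0.12), although its direction held in each. *Foxo4* (chromosome X, 101254528 to 101260873, plus strand, ENSMUSG00000042903) had normalized counts of 740.3, 685 and 713 with vehicle and 701, 695 and 752 with corticosterone. These overlapped, and the log2 fold change of 0.0064 had a 95% interval of -0.12 to 0.14, or folds of 0.918 to 1.10, with a sign that depended on the scaling.

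Ratios between the factor genes were taken within each library. The log2 ratio of *Foxo4* to *Foxo3* was -3.51 ± 0.070 with vehicle and -3.89 ± 0.059 with corticosterone (SD, n = 3 each), and that of *Foxo4* to *Foxo1* was 1.35 ± 0.046 with vehicle and 1.08 ± 0.014 with corticosterone (SD, n = 3 each). Both were lower in every corticosterone library than in any vehicle library, at the smallest exact permutation p of 0.1. The log2 ratio of *Foxo3* to *Foxo1* was 4.86 ± 0.089 with vehicle and 4.97 ± 0.045 with corticosterone (SD, n = 3 each) and overlapped between the groups (exact permutation p = 0.20). Per kilobase of exon, *Foxo3* was at 1072 ± 15.6, *Foxo4* at 205 ± 7.89 and *Foxo1* at 32.2 ± 1.55 with vehicle (SD, n = 3), with no overlap between them. The remaining family member *Foxo6* had at most 2 reads in any library.

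**Figure D2:**
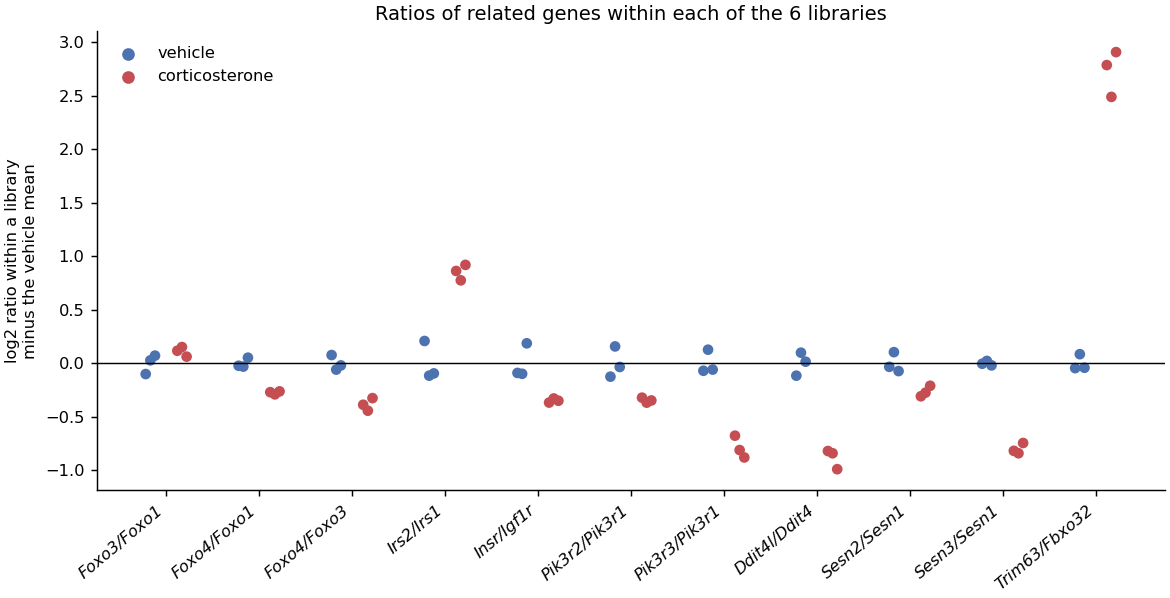
Log2 ratio of a pair of related genes within each library, less the mean of the 3 vehicle libraries, for the 11 ratios compared, with blue points for vehicle and red points for corticosterone libraries. *Trim63* to *Fbxo32* has the largest shift, 2.73, *Irs2* to *Irs1* shifts up by 0.85, and *Foxo3* to *Foxo1* is the pair whose groups overlap.

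Of 14 genes for FoxO factors and the enzymes that modify them, 5 passed, 3 higher and 2 lower, a share of 35.7% near the 32.6% of genes with a mean of at least 100. Besides *Foxo1* and *Foxo3*, the acetyltransferase gene *Ep300* rose by 0.50 (limma adjusted p = 3.7e-07), the stress kinase gene *Stk4* (MST1) fell by 0.51 (adjusted p = 3.4e-06) and the deacetylase gene *Sirt1* fell by 0.31 (adjusted p = 0.031), a call lost without any 1 library other than vehicle replicate 1 (adjusted p 0.053 to 0.22). This count was 3 with DESeq2, 3 without vehicle replicate 3, 3 without corticosterone replicate 1, 3 without corticosterone replicate 2 and 3 without corticosterone replicate 3.

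*Ddit4* had the largest change among the members. It encodes REDD1, a stress-induced protein that releases the TSC complex and so lowers mTORC1 activity, and it is a known glucocorticoid target in muscle and other tissues (chromosome 10, 59949669 to 59951834, minus strand, ENSMUSG00000020108). Its normalized counts were 6535, 6218 and 6210.3 with vehicle and 11849.9, 11620.2 and 13380.2 with corticosterone. The lowest corticosterone library was well above the highest vehicle library, with means of 6321 ± 185 and 12283 ± 957 (SD, n = 3 each) and a fold of 1.94 (log2 fold change 0.96, standard error 0.050, limma adjusted p = 7.2e-10). Leaving out any 1 library kept the log2 fold change between 0.89 and 0.99, just under the study's size threshold of 1. Per kilobase of exon it led the members in both groups, at 3602 ± 106 with vehicle and 6999 ± 545 with corticosterone (SD, n = 3). Its paralog *Ddit4l* had a log2 fold change of 0.074 (95% interval -0.034 to 0.18, adjusted p = 0.41), and the log2 ratio of *Ddit4l* to *Ddit4* was -1.99 ± 0.11 with vehicle and -2.87 ± 0.093 with corticosterone (SD, n = 3 each).

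The window before the start of *Ddit4*, chr10:59951771-59952020 (minus strand, GRCm38.p6), is shown because this member had the largest change. It was searched on both strands for the single glucocorticoid receptor (GR) hexamer TGTTCT, the palindromic GR site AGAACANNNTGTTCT, the FoxO site TGTTTAC, the insulin response element and the E-box.
Ddit4: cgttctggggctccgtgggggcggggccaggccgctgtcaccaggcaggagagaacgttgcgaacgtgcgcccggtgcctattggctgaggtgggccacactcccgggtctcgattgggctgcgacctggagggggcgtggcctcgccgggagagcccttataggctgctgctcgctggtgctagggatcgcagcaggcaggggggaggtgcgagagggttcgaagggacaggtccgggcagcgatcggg
No letters are in capitals because none of these motifs is in this window, part of which GENCODE counts to the gene's exon. The windows of *Foxo1*, *Foxo3*, *Pik3r1* and *Sesn1* held none either. Of all 32851 windows, 16.1% held the hexamer, 0.00913% the palindrome and 3.17% the FoxO site. Sequences were at hand for 7 members with 9 windows, and *Insr*, *Foxo4* and *Fbxo32* were not searched.

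*Sesn1* encodes sestrin 1, a leucine-sensing and antioxidant protein that holds mTORC1 down and is known as a FoxO and p53 target (chromosome 10, 41809935 to 41908424, plus strand, ENSMUSG00000038332). Its normalized counts were 8341, 9044 and 8904 with vehicle and 8177, 8708 and 8202 with corticosterone. These overlapped, with a log2 fold change of -0.067 (95% interval -0.16 to 0.024, limma adjusted p = 0.36), and only quantile normalization gave a call (-0.20, adjusted p = 0.0051). Its paralogs were lower with corticosterone. *Sesn3* had 3805, 4203 and 4019 with vehicle and 2123, 2226 and 2240.0 with corticosterone (log2 fold change -0.87, standard error 0.047, limma adjusted p = 1.2e-09), a fold of 0.548. *Sesn2* fell from 2077 ± 196 to 1647 ± 75.1 (SD, n = 3 each) (log2 fold change -0.33, adjusted p = 0.0010). The log2 ratio of *Sesn3* to *Sesn1* was -1.13 ± 0.021 with vehicle and -1.93 ± 0.050 with corticosterone (SD, n = 3 each), without overlap.

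Over the mTORC1 arm, 6 of 17 genes (35.3%, near the 32.6% of genes with a mean of at least 100) passed, 3 higher and 3 lower, and 3 did without a variance trend. Besides *Ddit4*, *Sesn2* and *Sesn3* these were *Deptor*, *Eif4ebp1* and *Tsc2*. *Deptor*, which encodes an inhibitor bound to the mTOR kinase, had normalized counts of 477, 379 and 489 with vehicle and 1989, 2081 and 2179 with corticosterone, the largest change in this list (log2 fold change 2.22, standard error 0.081, limma adjusted p = 1.1e-11). *Eif4ebp1*, a translation repressor gene, rose by 0.33 and *Tsc2*, the subunit of the TSC complex that REDD1 acts through, fell by 0.14 (adjusted p = 0.046), a call lost without any 1 library other than corticosterone replicate 3 (adjusted p 0.066 to 0.22). The kinase gene *Mtor* had a log2 fold change of 0.11 (95% interval -0.022 to 0.25).

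**Figure D3:**
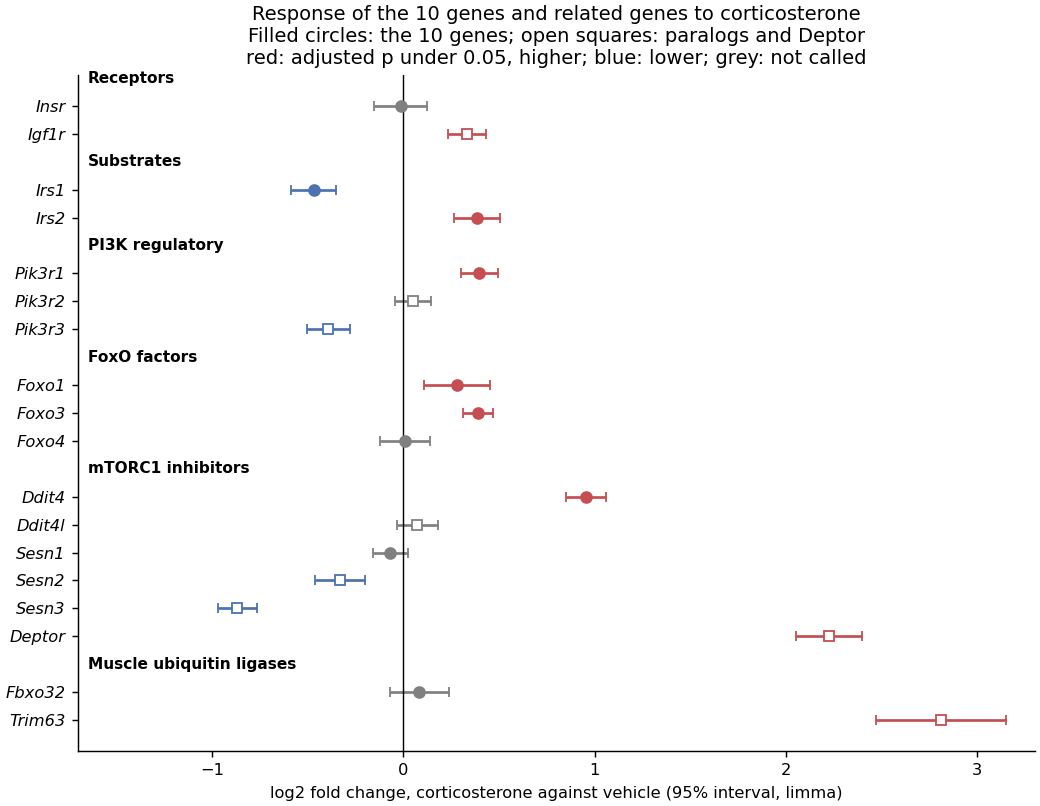
Log2 fold change (corticosterone over vehicle) with 95% interval for the 10 members (filled circles) and for paralogs, *Trim63* and *Deptor* (open squares), from limma on 3 against 3 libraries, in red where higher and blue where lower at an adjusted p under 0.05 and in grey otherwise. Among the members, *Ddit4* lies at 0.96, *Irs1* at -0.47, and the intervals of *Insr*, *Foxo4*, *Sesn1* and *Fbxo32* span 0.

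*Fbxo32* encodes atrogin-1, the F-box ubiquitin ligase that with MuRF1 defines muscle atrophy and is induced there by FoxO factors and glucocorticoids (chromosome 15, 58175879 to 58214932, minus strand, ENSMUSG00000022358). Its normalized counts were 1065, 1326 and 1136 with vehicle and 1226, 1324 and 1177 with corticosterone. The groups overlapped, and the log2 fold change of 0.084 had a 95% interval of -0.070 to 0.24 (limma adjusted p = 0.54), or folds of 0.953 to 1.18. Single libraries moved it, to 0.016 without vehicle replicate 1 and 0.17 (adjusted p = 0.097) without vehicle replicate 2, and no such fit passed the test. Its classical partner *Trim63*, the gene of MuRF1, was at a much lower level but far higher with corticosterone. *Trim63* had 30.0, 40.9 and 32.1 with vehicle and 246, 216 and 257 with corticosterone, on 31 to 230 reads, a fold of 6.99 (log2 fold change 2.81, standard error 0.16, limma adjusted p = 2.1e-09). Their log2 ratio, *Trim63* to *Fbxo32*, was -5.10 ± 0.074 with vehicle and -2.37 ± 0.22 with corticosterone (SD, n = 3 each), so *Fbxo32* remained the more counted of the pair in every library.

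Markers of skeletal muscle, where these ligases are known, were looked up as well. The 6 of 10 markers measured had a summed normalized count of 78.7 to 104 with vehicle and 118 to 166 with corticosterone. *Actn3*, a fast-fibre actinin gene, made up most of it (52 to 90 reads per library) and was the 1 marker of the 6 past the test (log2 fold change 0.75, limma adjusted p = 0.014). That call was lost without vehicle replicate 1 or 2 or corticosterone replicate 2 or 3 (adjusted p 0.052 to 0.093). It was also lost without a variance trend (adjusted p = 0.10). The muscle creatine kinase gene *Ckm* had at most 4 reads and the myoglobin gene *Mb* at most 7. *Myod1*, *Myog*, *Myf5* and *Myh4* were looked up too but were not among the 24016 genes with values. The part of muscle markers in the result for *Trim63* was not tested.

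A stretch of the *Trim63* promoter is shown because this gene held the GR hexamer and the FoxO site side by side. It runs from 220 to 161 bases before the start, chr4:134314900-134314959 on the plus strand of GRCm38.p6, and capitals mark TGTTCT followed directly by TGTTTAC.
Trim63: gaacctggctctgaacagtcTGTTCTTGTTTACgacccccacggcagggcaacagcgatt
The hexamer began 200 and the FoxO site 194 bases before the start. Read together with the bases just before it, the hexamer matched the palindromic GR site at every base except the first. Motifs were searched as exact matches only, so this near match to the palindrome was not marked. How many windows hold such a near match was not tested. Of all windows of 250 bases, 15 (0.0457%) held both with starts within 10 bases, a distance chosen after the matches had been seen.

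Over the 24 atrophy genes, 22 were measured and 5 passed, 3 higher and 2 lower, a share of 22.7% against 16.7% of all genes and 32.6% of those with a mean of at least 100. Besides *Trim63*, the lysosomal protease gene *Ctsl* rose by 0.42 (limma adjusted p = 2.9e-06) and the autophagy gene *Gabarapl1* by 0.20 (adjusted p = 0.015), the latter call lost without any 1 library other than vehicle replicate 2 (adjusted p 0.069 to 0.13). The transcriptional repressor gene *Tgif1* and the F-box gene *Fbxo21* fell by 0.29 and 0.20 on the log2 scale. *Klf15*, a glucocorticoid-induced factor of muscle, had at most 5 reads in any library. The count was 9 with edgeR on all genes or with a replicate block, 2 without a variance trend, 3 without vehicle replicate 3 and 3 without corticosterone replicate 1. The call of *Fbxo21* was lost without vehicle replicate 3 or corticosterone replicate 1 (adjusted p 0.064 to 0.066).

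Of 29 known FoxO target genes, 25 were measured and 14 passed, 5 higher and 9 lower, with a median log2 fold change of -0.053 against -0.013 for all genes. The share that passed was 56.0%, against 32.6% of genes with a mean of at least 100, the direction was mixed, and 3 members (*Insr*, *Irs2* and *Sesn1*) are in the list. The 5 higher genes were *Irs2*, *Bcl2l11*, *Gadd45a*, *Gadd45b* and *Rbl2*. *Bcl2l11*, which encodes the pro-apoptotic protein BIM, rose from 1011 ± 36.3 to 1752 ± 74.4 (SD, n = 3 each) (log2 fold change 0.79, limma adjusted p = 1.3e-08), and the stress gene *Gadd45b* rose by 0.65 (adjusted p = 1.6e-06). Besides *Sesn3*, the lower genes included *Pdk4*, which switches cells from glucose to fat oxidation (-0.30, adjusted p = 5.3e-05), and *Cdkn1a* and *Ccng2*, which restrain the cell cycle (-0.37 and -0.35). The pro-apoptotic gene *Bbc3* fell too, from 1114 ± 188 to 823 ± 26.4 (SD, n = 3 each) (log2 fold change -0.42, limma adjusted p = 0.0025). That call was lost without vehicle replicate 3 or corticosterone replicate 3 (adjusted p 0.064 to 0.072). The call of *Gadd45a* was lost without any 1 library other than vehicle replicate 2 (adjusted p 0.085 to 0.27) and that of *Rbl2* without any 1 of the 6 libraries (adjusted p 0.065 to 0.11). The count was 4 without a variance trend, 8 without vehicle replicate 3 and 9 without corticosterone replicate 1.

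**Figure D4:**
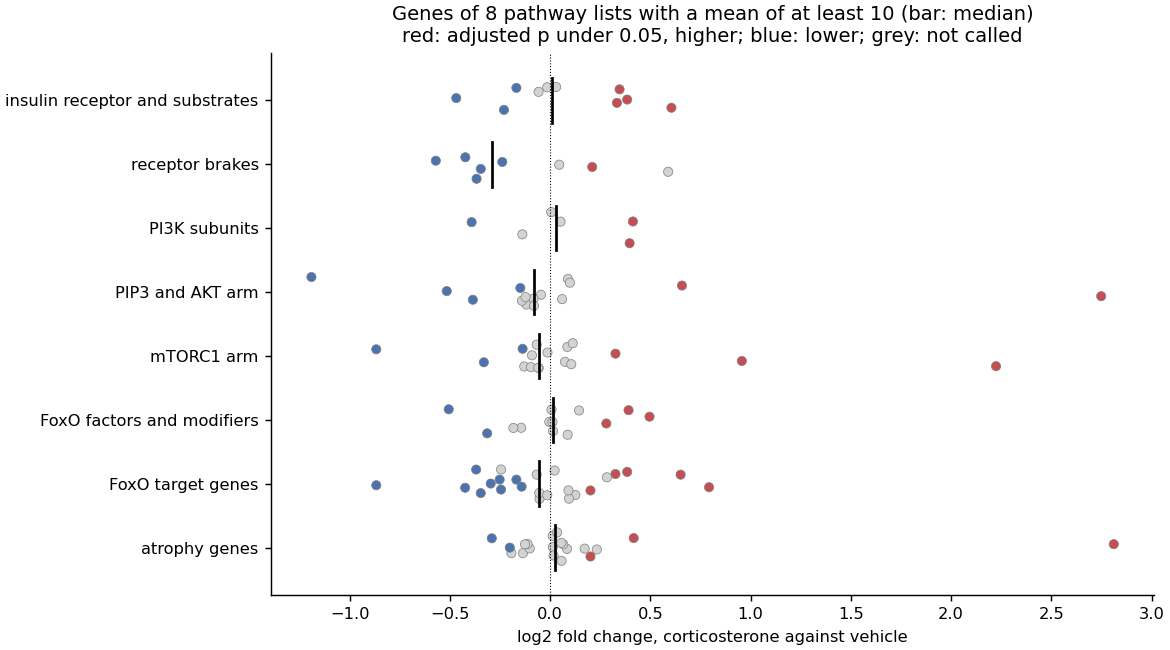
Log2 fold change (horizontal axis) of the genes in the 8 pathway lists with a mean of at least 10, 1 row per list and 1 point per gene, in red where higher and blue where lower at an adjusted p under 0.05, with the median of the points as a bar. The lists hold calls in both directions, the receptor brakes lie lowest with a median of -0.29, and *Trim63*, *Sgk1* and *Deptor* lie above 2.

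Over all 8 lists, 117 of 126 genes were measured and 50 (42.7%) passed, 22 higher and 28 lower. Without the members these were 44 of 107 (41.1%), 17 higher and 27 lower. The shares lie above the 32.6% of genes with a mean of at least 100, but they were not tested against it. The count of 50 was 30 without vehicle replicate 3 and 22 without a variance trend. In the whole table, 2567 genes passed without that library, against 4010 with it.

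Ranked per kilobase of exon, the vehicle levels ran from *Ddit4* through *Sesn1* (2201), *Foxo3* (1072), *Pik3r1* (443), *Irs1*, *Irs2*, *Foxo4*, *Fbxo32* (169) and *Insr* (57.8) to *Foxo1* (32.2 normalized counts per kilobase). Only the neighbours *Irs1* and *Irs2* overlapped. With corticosterone the order changed in the middle, where *Irs2* stood above *Foxo4* (205) and *Fbxo32* (178), and *Irs1* fell below them. There only *Fbxo32* and *Irs1* overlapped as neighbours. The exon length is that of all annotated exons together, so a level per kilobase is too low for a gene that uses few of its exons.

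**Figure D5:**
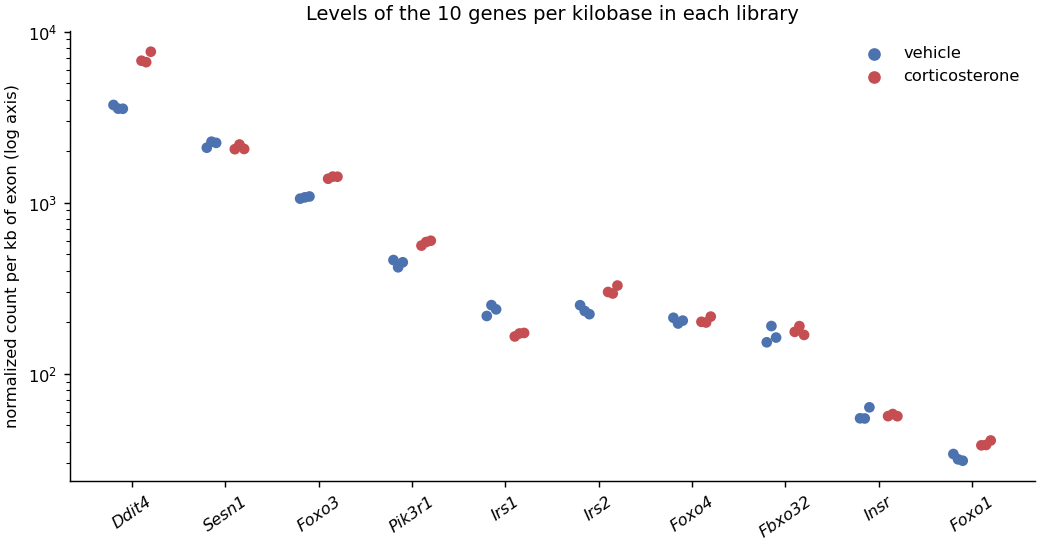
Normalized count per kilobase of annotated exon for each member on a log axis, with points for the 6 libraries, ordered by the vehicle mean. *Ddit4* leads in both groups, *Foxo1* is lowest, and *Irs1* and *Irs2* overlap with vehicle and separate with corticosterone.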

How the data were processed

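RNA-seq was performed on 3 vehicle and 3 corticosterone libraries of MC3T3-E1 cells (NEBNext Ultra RNA kit, commercial Illumina sequencing). The submitters' processing notes name the build mm10. The aligner, counting program, annotation and use of strand are not given in the sources used here, and the paper names DESeq2 for the authors' own test. The file deposited by the authors holds a signal for each gene in each library, which is called FPKM and is never below 0. All values (100%, tolerance 0.01 read) were whole multiples of 1 step per library, the same for short and long genes, so the table holds read counts that were divided by a size factor. The design assumed FPKM and was kept. The labels give passages 4 to 10 in one field and 6 to 12 in another for all samples.

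Symbols came from GENCODE M21 (GRCm38), which matched 24008 of 24016 identifiers. Differences of log2(value + 0.1) were tested in limma 3.58.1 under R 4.3.3, with a variance trend and a minimum mean of 0.1 that removed no gene, with Benjamini-Hochberg adjustment over all genes, and the procedure was tested on simulated data. The call was an adjusted p under 0.05. Ratios of related genes were compared with two-sided exact permutation tests, whose smallest p for 3 against 3 is 0.1. Alternatives were edgeR 4.0.16 and DESeq2 1.42.0 on the recovered reads, other pseudocounts, filters, prior variances and scalings, a replicate block, and leaving out each library. No 2 libraries were near-duplicates, since the chi-square per degree of freedom between their counts was at least 3.38.

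At 16020401 to 25638645 reads per library, 3 reads, the floor used here, came to a normalized count of 2.32 to 3.84, and this covers counting error only. Replicates are described as biological. Where they shared a culture, the p-values measure the spread between these samples, which may be technical. The members, gene lists and tests were chosen with earlier results of these data known. Named were the members, their paralogs, per list the genes past a log2 fold change of 1 and the 3 largest changes, cell type markers and 3 known glucocorticoid targets, and other list genes after their values had been seen. Single-gene results of some list genes are not reported here, while fits and list counts include them. Promoters were the 250 bases before RefSeq starts (GRCm38.p6).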

Additional observations from a re-analysis of the deposited data

How the results depend on the processing

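Under 20 alternatives each, *Irs1*, *Pik3r1*, *Foxo3* and *Ddit4* kept their direction and their side of the threshold in all. *Irs2* lost its call without a variance trend (0.38, adjusted p = 0.070). *Foxo1* lost it with DESeq2 (0.28, adjusted p = 0.076), without a variance trend (0.28, 0.097), and after total (0.24, 0.054) or upper-quartile scaling (0.21, 0.12), and it lay between 0.25 and 0.32 without single libraries. The log2 fold change of *Foxo4* turned to -0.0044 with edgeR on all genes, -0.0078 with quantile normalization, -0.035 with total and -0.062 with upper-quartile scaling, and lay between -0.030 and 0.034 without single libraries. That of *Insr* lay between -0.051 and 0.057. *Sesn1* passed with quantile normalization (-0.20, adjusted p = 0.0051), and *Pik3r2* turned to -0.053 there and to -0.017 with upper-quartile scaling. The cause was not tested. Without a variance trend 1633 genes passed (873 higher, 760 lower), and the list counts were 3 (receptor and substrates), 1 (brakes), 3 (mTORC1 arm), 4 (FoxO targets), 2 (atrophy) and 22 (all lists). The FoxO factor list had 3 with DESeq2, and the atrophy list 9 with edgeR on all genes and 9 with edgeR and a replicate block. Upper-quartile scaling left 1349 genes higher. Leaving out single libraries gave 2567 to 3484 genes, 1148 to 1611 lower and 204 to 321 lower past a log2 fold change of 1, and list counts of 1 to 4 (brakes), 3 to 5 (FoxO factors), 8 to 11 (FoxO targets), 3 to 6 (atrophy) and 30 to 40 (all lists). Same-numbered libraries did not deviate together (correlations -0.0438, 0.0014 and 0.0234 over 13880 genes), so the replicate numbers were not taken as pairs. With a replicate block in limma 3905 genes passed and no member's call changed. No scaling moved the median of genes with a mean of at least 100 by over 0.1, the largest shift being to -0.071 from -0.0021. With 3 libraries a group, changes as small as those of *Sesn1* and *Fbxo32* could not be told from none.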

Other observations

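Markers of cell types other than osteoblasts gave these values. Of 6 adipocyte markers 3 were measured, and their summed normalized count was 1850.4 to 2154 with vehicle and 1981 to 2125 with corticosterone. Within that list *Fabp4*, a fatty acid carrier gene of fat cells and macrophages, rose from 14.8 ± 6.71 to 121 ± 11.5 (SD, n = 3 each) (log2 fold change 3.14, limma adjusted p = 1.3e-06). Most of the sum was *Adipor2*, at 1950 ± 172 with vehicle and 1911 ± 71.3 with corticosterone (SD, n = 3 each) (log2 fold change -0.026, limma adjusted p = 0.85). *Plin1*, also in the list, had at most 2 reads in any library. Of 3 chondrocyte markers 1 was measured, the cartilage collagen gene *Col2a1*, which fell from 1297 ± 158 to 744 ± 81.0 (SD, n = 3 each) (log2 fold change -0.80, adjusted p = 3.5e-06). The 2 of 4 macrophage markers measured summed to 46.5 to 62.4 with vehicle and 43.5 to 47.5 with corticosterone, and the 2 of 3 endothelial markers to 0 to 10.5 with vehicle and 1.07 to 12.8 with corticosterone. The part of such cells in the members' values was not tested.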
